A study of Homo sapiens with 6 samples.

Results

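The Schlafen family comprises 6 human genes, SLFN5, SLFN11, SLFN12, SLFN12L, SLFN13 and SLFN14, and each of these symbols was found once among the 58870 genes of the expression table. Members were taken by symbol alone, whatever their values, so that rows of 0 counts were kept. Expression was measured by RNA sequencing of HEK-293T, an immortalized line from human embryonic kidney. The WT cells carry the genotype Thumpd+/+, and the THUMPD1 KO cells carry Thumpd-/- after disruption of THUMPD1 with CRISPR-Cas9. There were 3 libraries per genotype, grown in the same medium with no further treatment named. The KO line was derived by sorting single cells, so that traits of 1 clone and the loss of THUMPD1 cannot be told apart. Nothing in the labels says that the libraries came from separate cultures, and the p values measure only the spread between these libraries.

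Schlafen proteins share an N-terminal core that in several members is an RNA endonuclease, and the longer members add a helicase-like C-terminal domain. SLFN11, the best studied member, cuts tRNA for Leu and Ser, binds RPA on DNA at stalled replication forks and sensitizes tumor cells to DNA-damaging drugs. THUMPD1 is the adaptor with which NAT10 acetylates cytidine in tRNA of the same amino acids, and this overlap of substrates is why the family was examined in these cells. Several Schlafen genes are induced by type I interferon, and their expression is best known from blood cells. SLFN11 is also known for being silent in many cell lines with a methylated promoter.

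The 6 genes lie side by side on chromosome 17 (GRCh38, GENCODE 44), in a span of 317.7 kb from 35243071 to 35560819. SLFN5 occupies 35243071-35273655 on the plus strand. The others lie on the minus strand, with SLFN11 at 35350305-35373701, SLFN12 at 35410922-35433283, SLFN13 at 35435096-35448837, SLFN12L at 35464249-35537678 and SLFN14 at 35543985-35560819. Their coding sequences fell into a long class and a short class. SLFN5, SLFN11, SLFN13 and SLFN14 had 891, 901, 897 and 912 codons, whereas SLFN12 and SLFN12L had 578 and 612. Close copies occurred within each class. SLFN11 and SLFN13 were identical at 87.2% of aligned coding bases and SLFN12 and SLFN12L at 86.9%, whereas every other pair lay between 60.2% and 69.2%.

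**Figure D1:**
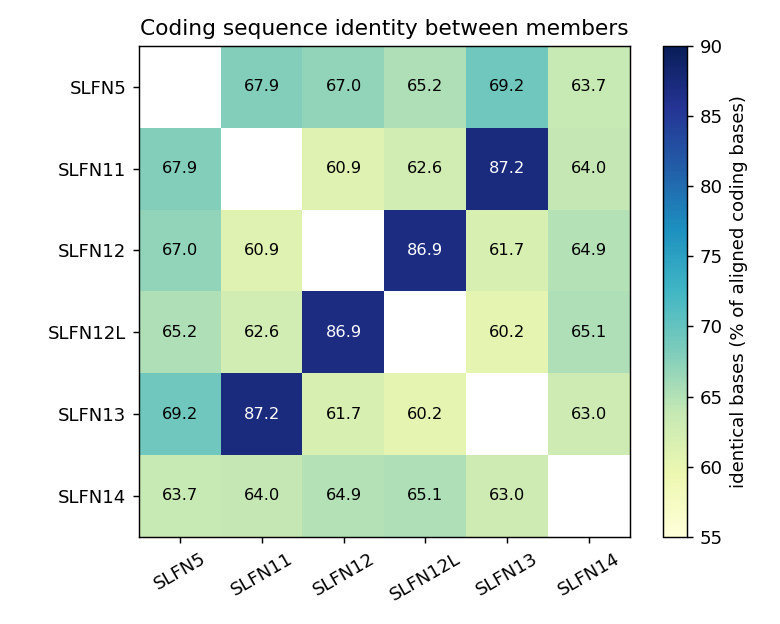
Percent of identical bases in pairwise alignments of 1 coding sequence per Schlafen gene; rows and columns are genes and each cell prints its percentage. SLFN11 with SLFN13 (87.2%) and SLFN12 with SLFN12L (86.9%) stand above the other pairs, which reach 69.2%.

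This resemblance bears on the counts, because a read from an identical stretch cannot be placed by its sequence. Of the 6370 distinct 50-base words in SLFN11 transcripts, 617 (9.69%) also occurred in SLFN13, and 35 (0.549%) occurred in SLFN12L and likewise in the pseudogene ENSG00000286030. The longest run that SLFN11 and SLFN13 shared was 516 coding bases, from 1438 to 1953 of the SLFN11 coding sequence. SLFN5 shared no such word with another member. Its longest identical run with SLFN11 was 41 bases. The coding stretch around that run is shown for the 4 long members, since it is where SLFN5 and SLFN11, the members with appreciable counts, are most alike. Each stretch lies in the last coding exon of its gene (exon 5 of 5 in SLFN5, 7 of 7 in SLFN11, 6 of 6 in SLFN13 and SLFN14). The sequences were taken from GENCODE 44 transcripts, and their GRCh38 positions from the annotation. These positions are chr17:35265148-35265219 (SLFN5, plus strand), chr17:35352998-35353069 (SLFN11, minus strand), chr17:35441225-35441296 (SLFN13, minus strand) and chr17:35548929-35549003 (SLFN14, minus strand). Capitals mark bases identical to SLFN11.
SLFN11: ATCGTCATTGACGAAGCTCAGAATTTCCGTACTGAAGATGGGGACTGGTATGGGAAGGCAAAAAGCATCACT
SLFN13: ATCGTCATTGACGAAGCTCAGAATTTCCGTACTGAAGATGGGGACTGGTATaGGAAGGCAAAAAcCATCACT
SLFN5: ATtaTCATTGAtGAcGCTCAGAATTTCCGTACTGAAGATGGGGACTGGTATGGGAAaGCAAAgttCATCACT
SLFN14: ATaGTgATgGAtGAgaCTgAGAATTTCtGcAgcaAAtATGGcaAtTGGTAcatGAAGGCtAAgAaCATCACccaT
Of the 72 bases of SLFN11, 70 were identical in SLFN13, 64 in SLFN5 and 50 in SLFN14, whose stretch has 75 bases. SLFN12 and SLFN12L end before this domain and have no counterpart to it.

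The promoter of SLFN11 is shown with that of SLFN12, because the former belongs to a member with transcripts in KO cells and the latter to a member with no count. Both are from RefSeq (GRCh38.p14) and run from 250 bases before to 50 after the transcription start, at chr17:35373572-35373871 and chr17:35433125-35433424 on the minus strand. Promoters were at hand for 3 of the 6 members, SLFN11, SLFN12 and SLFN12L, and not for SLFN5, SLFN13 and SLFN14. Capitals mark CpG dinucleotides, the sites at which DNA can be methylated.
SLFN11: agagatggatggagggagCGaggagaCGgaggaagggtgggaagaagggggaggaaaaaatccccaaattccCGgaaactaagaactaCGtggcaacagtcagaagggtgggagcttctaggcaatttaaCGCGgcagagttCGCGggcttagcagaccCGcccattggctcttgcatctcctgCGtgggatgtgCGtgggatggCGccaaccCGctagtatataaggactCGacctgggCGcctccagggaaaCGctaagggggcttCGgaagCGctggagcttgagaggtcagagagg
SLFN12: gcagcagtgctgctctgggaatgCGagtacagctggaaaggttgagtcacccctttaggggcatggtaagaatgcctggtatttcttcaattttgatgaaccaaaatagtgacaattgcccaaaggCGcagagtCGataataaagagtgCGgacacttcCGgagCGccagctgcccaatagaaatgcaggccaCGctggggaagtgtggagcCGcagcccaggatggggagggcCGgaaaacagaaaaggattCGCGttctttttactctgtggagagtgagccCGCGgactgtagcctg
The SLFN11 promoter held 18 CpG, that of SLFN12 held 13 and that of SLFN12L held 2, against a median of 14 over 35116 promoters of this length. Of all these promoters, 55.5%, 48.3% and 10.97%, respectively, held fewer. DNA methylation was not measured here. GGAA, the core recognized by ETS factors, matched 7 times in SLFN11 on either strand, 5 times in SLFN12 and 4 times in SLFN12L, where the median promoter had 3 matches and 95.5% had any. The interferon-stimulated response element was searched by its consensus on both strands, occurs in 3.57% of promoters and matched only in SLFN12L. An element of this form can contain a GGAA core, so that the counts of the motifs are not independent. CCAAT matched once in SLFN11 and once in SLFN12, against 34.6% of promoters with any match. TATAAA matched in none of the 3 promoters and in 11.5% of all. Only this exact string was searched, and related forms such as the tatataag in the SLFN11 promoter were not counted. These are letter matches in 1 window and say nothing of binding.

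The libraries held 32225646 to 44099898 expected counts, at which 3 counts correspond to 0.0680 to 0.0931 CPM (counts per 1000000 counts of the library). The targeted gene THUMPD1 fell in the KO libraries (log2 fold change -2.87, limma adjusted p = 3.17e-08). Of 8 markers that HEK-293 cells are known to express, 8 passed the filter on low counts, 4 were higher and 2 lower in KO (75% called, against 26.7% of all genes tested), and their summed level was 466 to 499.5 CPM in WT and 401 to 458 CPM in KO. Among them the neurofilament gene NEFM fell from 35.3 ± 8.47 to 5.33 ± 1.20 CPM (log2 fold change -2.75, limma adjusted p = 1.30e-05). NEFL, of the same list, rose from 55.5 ± 2.92 to 68.9 ± 6.22 CPM (0.31, limma adjusted p = 0.00443). INA, another of the higher markers, rose from 33.0 ± 1.51 to 41.6 ± 1.95 CPM (0.33, limma adjusted p = 0.00283). Of 8 markers of differentiated kidney, 5 had no count and none passed the filter, although the labels give kidney as the tissue. Of 10 markers of leukocytes and erythroid cells, where Schlafen genes are best known, 2 (MS4A1 and HBB) were at 0, and the summed level of the list was 1.37 to 1.98 CPM in WT and 1.56 to 1.77 CPM in KO.

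Schlafen expression in HEK-293T cells came almost wholly from SLFN5 in WT and from SLFN5 and SLFN11 in KO. SLFN5 held 96.6, 100 and 98.2% of the family counts in the WT libraries. It held 88.1, 79.1 and 82.4% in KO, where SLFN11 held 10.7, 19.5 and 16.5%. The summed level of the 6 genes was 4.15, 2.58 and 2.92 CPM in WT and 6.72, 4.99 and 5.46 CPM in KO. SLFN12 had no count in any library. SLFN13, SLFN12L and SLFN14 had at most 3 in each. Only SLFN5 reached 1 CPM in at least 3 libraries, the filter of the limma-voom comparison, and there it was higher in KO, as were 13.7% of all 15088 genes tested. SLFN5 and SLFN11 reached a summed count of 10 over the 6 libraries, the filter of the edgeR comparison, and both were higher in KO, against a background of 7.08% of 23363 genes. SLFN11 passed that filter only through its KO libraries, so that the count of members called is a description and no evidence of a shared direction.

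**Figure D2:**
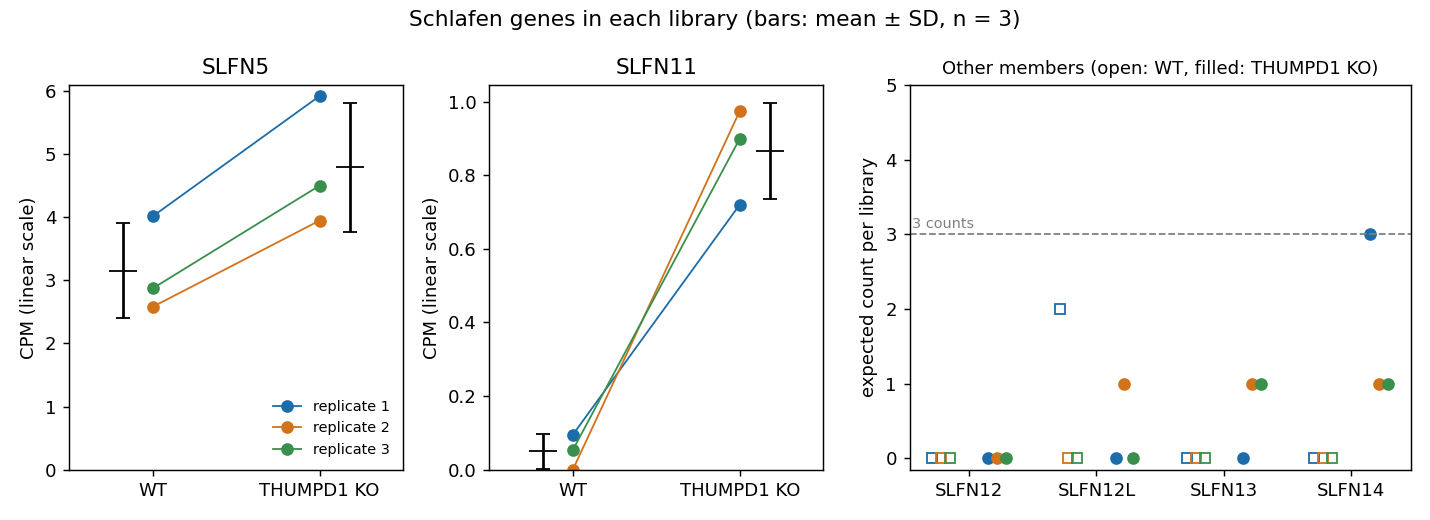
Levels of the Schlafen genes in each library: CPM on linear axes from 0 for SLFN5 (left) and SLFN11 (middle), with lines joining libraries of the same replicate number and bars for the mean ± SD (n = 3), and expected counts for the other members (right; open squares WT, filled circles THUMPD1 KO, dashed line at 3 counts). SLFN11 moves from at most 0.0950 CPM in WT to between 0.721 and 0.975 CPM in KO, SLFN5 is higher in KO within each replicate number, and the other members stay at or below 3 counts.

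SLFN11 was nearly undetected in WT cells and present at a low level in every KO library. WT replicates 1, 2 and 3 had 4, 0 and 2 counts, and KO replicates 1, 2 and 3 had 28, 43 and 29. In CPM these were 0.0950, 0 and 0.0537 in WT against 0.721, 0.975 and 0.900 in KO. All KO libraries lay above all WT libraries, as they did for 20.5% of the genes in the edgeR comparison, and the WT values lie near or below the level of 3 counts. The mean rose from 0.0495 ± 0.0476 to 0.865 ± 0.131 CPM (SD, n = 3 each), and the edgeR quasi-likelihood test gave a log2 fold change of 3.98 (SE 0.49, adjusted p = 1.14e-04). The summed counts were 6 and 100, a ratio of 17.2 after division by the library totals (exact 95% interval 7.61 to 47.9), and this interval covers counting error alone. An exact two-sided permutation test of the 20 groupings of libraries gave p = 0.1, the smallest it can give with 3 against 3. Of the 1653 genes that edgeR called higher, 34 had a larger log2 fold change than SLFN11. Among the 8275 genes that only edgeR tested, 249 were called higher and 163 lower.

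The size of the SLFN11 difference rested on the few WT counts. Because the gene passed the count filter only through KO, the fit was also run with no count filter, which gave a log2 fold change of 3.98. Without WT replicate 1, which had 4 of the 6 WT counts, the log2 fold change was 4.83, and without WT replicate 2, which had none, it was 3.44. The call held in each of 12 other settings, with an edgeR adjusted p of at most 0.00164 (without KO replicate 2). SLFN13, which shares the most sequence with SLFN11, had at most 1 count in any library. SLFN12L, which shares 35 of the 50-base words of SLFN11, had at most 2. No annotated gene overlaps SLFN11. In RNA from bulk cells, more cells with SLFN11 transcripts and more transcript per cell cannot be told apart.

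SLFN5, a nuclear member known as a transcriptional repressor induced by interferon, was the most abundant of the family and lay above 61.7% of all genes with a count. Its counts were 169, 101 and 107 in WT and 230, 174 and 145 in KO. These correspond to 4.01, 2.58 and 2.87 CPM in WT and to 5.92, 3.95 and 4.50 CPM in KO. The groups overlapped, because KO replicate 2 lay just below WT replicate 1. The mean rose from 3.15 ± 0.757 to 4.79 ± 1.02 CPM (SD, n = 3 each), or 1.52-fold. limma-voom gave a log2 fold change of 0.54 (SE 0.16, adjusted p = 0.0339), and edgeR gave 0.56 (SE 0.18, adjusted p = 0.0479). The exact permutation test over libraries gave p = 0.2. Of the 2066 genes that limma called higher, 472 (22.8%) had a larger log2 fold change.

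The spread of SLFN5 followed the replicate numbers, which the genotypes share. Libraries numbered 1 lay above their genotype means by 0.32 (WT) and 0.30 (KO) on the log2 scale. Those numbered 2 lay below by 0.23 in both genotypes. Within the numbers, KO exceeded WT by 1.48-, 1.53- and 1.57-fold for replicates 1, 2 and 3. A replicate block in the fit gave a log2 fold change of 0.55 and a limma adjusted p of 0.00392. The call was lost without WT replicate 2 (adjusted p = 0.110), WT replicate 3 (0.0935), KO replicate 1 (0.101) or KO replicate 3 (0.0780), and when limma-voom was run with no CPM filter (0.0822), with the direction kept in each.

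The remaining members were at the limit of detection. SLFN12, which with PDE3A cuts tRNA for Leu, had 0 counts in all 6 libraries, which allows up to 0.0680 to 0.0931 CPM per library. SLFN13, an endonuclease acting on tRNA and ribosomal RNA, had 0 in each WT library and 0, 1 and 1 in KO. SLFN12L, the relative of SLFN12, had 2, 0 and 0 counts in WT and 0, 1 and 0 in KO. SLFN14, a ribosome-associated endonuclease known from platelet disorders, had 0 in each WT library and 3, 1 and 1 in KO. The SLFN14 libraries of the genotypes did not overlap, but none exceeded 3 counts, and no fold is given. With no filter on low counts, SLFN12L, SLFN13 and SLFN14 had adjusted p values of 0.921, 0.341 and 0.0541 in limma-voom and of 0.828, 0.489 and 0.188 in edgeR. The exact permutation test of SLFN14 gave p = 0.1, the smallest it can give. A difference between genotypes was not detectable for these 4 genes at this depth. Of the 8 annotated genes that overlap SLFN12L or SLFN14, 7 were at 0 and the pseudogene ENSG00000267554 had 2 counts, both in KO replicate 3.

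Corrected for exonic length, SLFN5 stood at 0.295 CPM per kb in WT and 0.449 CPM per kb in KO. SLFN11 stood at 0.00828 and 0.145 CPM per kb. The level of SLFN5 per kb was 3.10 times that of SLFN11 in KO. In WT the mean of SLFN11 lay below 3 counts. With SLFN11 set at 3 counts per library, SLFN5 was 23.2-fold higher per kb in WT. This ratio is no lower bound, because SLFN11 had 4 counts in WT replicate 1. The order of levels was SLFN5, SLFN11 and then the other members, and SLFN5 lay above SLFN11 in every library. SLFN11 lay above the others in each KO library. In WT it could not be separated from them, and among the other members no neighbors in the order differed beyond 3 counts.

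**Figure D3:**
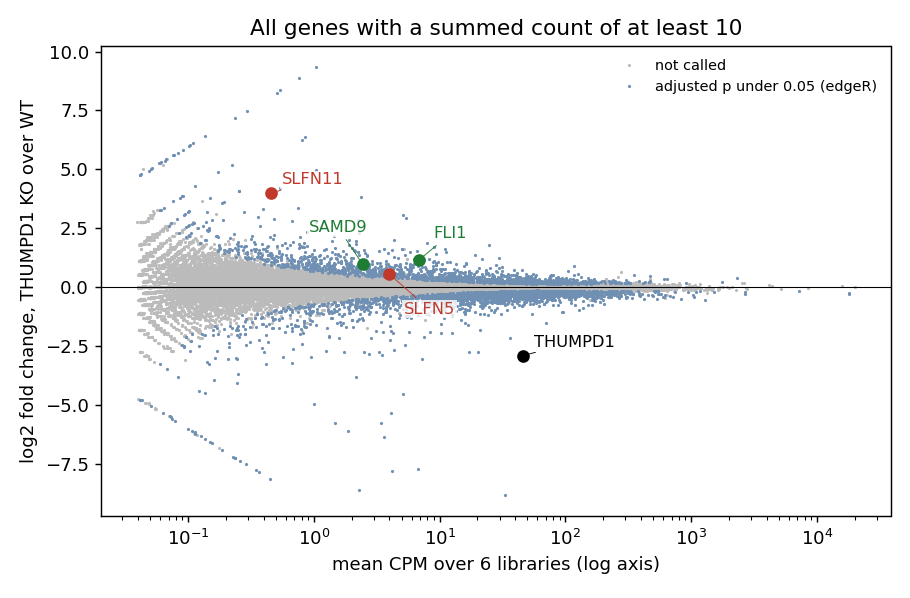
Log2 fold change of THUMPD1 KO over WT from edgeR (vertical axis) against mean CPM over the 6 libraries (horizontal log axis) for 23363 genes; blue points passed an adjusted p of 0.05. SLFN11 (3.98) lies among the larger changes at its low level, SLFN5 (0.56) within the body of called genes, and FLI1, SAMD9 and THUMPD1 are marked for comparison.

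Genes listed as regulators of SLFN11 transcription were examined next, and the largest change among them was in FLI1, an ETS factor. Whether FLI1 bears on SLFN11 in these cells was not tested. FLI1 stood at 5.44, 3.73 and 3.35 CPM in WT and at 11.3, 8.46 and 8.91 CPM in KO. All KO libraries lay above all WT libraries, as for 24.5% of the genes tested by limma. Its mean rose from 4.17 ± 1.11 to 9.55 ± 1.53 CPM (limma log2 fold change 1.16, SE 0.15, adjusted p = 3.18e-04), and the call held in every alternative. Among the 13 regulators, all tested, 1 was higher, 1 lower and 11 did not pass, against 26.7% of all genes called in either direction (13.7% higher and 13.0% lower). Their median log2 fold change was 0.01, and that of all genes 0.02. The lower gene was UHRF1, which recruits the maintenance methyltransferase (248.8 ± 2.56 to 225.6 ± 7.19 CPM, log2 fold change -0.16, limma adjusted p = 0.0154), and its call was lost without WT replicate 3 or KO replicate 2 (0.0654 and 0.0754). DNMT3B, a de novo DNA methyltransferase, had a log2 fold change of -0.14 (limma adjusted p = 0.0551). With the replicate block, 4 regulators were called, 2 higher and 2 lower. ETS1, another ETS factor, encoded beside FLI1 on chromosome 11, had a log2 fold change of 0.29 (limma adjusted p = 0.109, and 0.0424 without WT replicate 1) and is outside the rule for named genes.

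The interferon pathway, through which Schlafen genes are induced, had a share of called genes near that of all genes. Of 32 genes listed, 16 were tested, 2 were higher and 3 lower (31.2% called, against 26.7% of all genes), and the median log2 fold change was 0.02. USP18, the feedback inhibitor of the interferon receptor, fell from 17.98 ± 0.387 to 10.9 ± 0.294 CPM (log2 fold change -0.72, limma adjusted p = 4.51e-05). IFIT1, an interferon-induced sensor of viral RNA, fell from 4.42 ± 0.567 to 2.68 ± 0.107 CPM (-0.77, limma adjusted p = 0.00412). IFNAR1, a chain of the receptor itself, rose from 84.2 ± 1.90 to 100.4 ± 3.96 CPM (0.25, limma adjusted p = 0.00243). Of the 16 listed genes below the CPM filter, edgeR tested 11 and called none higher and 1 lower, where 9.68% of all genes in that comparison were lower. That gene was IRF7, a transcription factor of the pathway, named after its values were seen. IRF7 had 24, 18 and 13 counts in WT and 0 in each KO library, at least 5.78-fold lower when KO is set at 3 counts per library (edgeR adjusted p = 2.19e-04).

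Other enzymes that cut or degrade tRNA were compared with the family. Of 19 listed, 18 were tested, 3 were higher and 1 lower in KO (22.2% called, near the 26.7% of all genes), with a median log2 fold change of 0.02. SAMD9 is an interferon-inducible protein that cuts tRNA for Phe. It stood at 2.11, 1.30 and 1.45 CPM in WT and at 3.86, 3.04 and 2.92 CPM in KO. All KO libraries lay above all WT libraries, as for 24.5% of the genes tested by limma. The log2 fold change of SAMD9 was 0.94 (SE 0.17, limma adjusted p = 0.00262). ELAC1, which repairs tRNA ends left by cleavage, rose from 3.65 ± 0.810 to 5.42 ± 0.138 CPM (0.53, limma adjusted p = 0.0112), and DIS3, a nuclease of the exosome, from 277 ± 1.96 to 310.1 ± 11.2 CPM (0.14, limma adjusted p = 0.0179). The call of DIS3 was lost with edgeR (adjusted p = 0.0728), with TMM library sizes (limma adjusted p = 0.0501), and without WT replicate 2, WT replicate 3 or KO replicate 2 (0.0561, 0.0654 and 0.0804). The lower gene, RNH1, encodes the inhibitor of angiogenin rather than a nuclease (log2 fold change -0.16, limma adjusted p = 0.0452), and its call was lost with no CPM filter and without WT replicate 2 or 3 or KO replicate 1 or 2 (0.103 to 0.157). Angiogenin itself (ANG) had a log2 fold change of -0.32 (limma adjusted p = 0.229). Both are outside the rule for named genes. SAMD9L, the neighbor and relative of SAMD9, was not tested, with 0, 2 and 0 counts in WT and 1 in each KO library.

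Proteins that bind Schlafen members, or that sense the stalled forks and ribosomes linked to SLFN11 activity, were examined last. All 18 were tested, 2 were higher and none lower (11.1% called, against 26.7% of all genes), with a median log2 fold change of -0.03. ATR, the kinase of the replication checkpoint, rose from 83.4 ± 3.12 to 95.6 ± 3.87 CPM (0.18, limma adjusted p = 0.0171). DDB1, an adaptor of a ubiquitin ligase that SLFN11 engages, rose from 380 ± 2.89 to 427 ± 9.58 CPM (0.13, limma adjusted p = 0.0456). The call of ATR was lost without WT replicate 3 or KO replicate 2 (limma adjusted p = 0.0799 and 0.0726), and that of DDB1 without WT replicate 2, WT replicate 3, KO replicate 1 or KO replicate 3 (0.135, 0.115, 0.0739 and 0.167). CDT1, the replication licensing factor degraded with SLFN11, had a log2 fold change of -0.22 (limma adjusted p = 0.0680). With the replicate block 6 of the 18 were called, 4 higher and 2 lower, CDT1 among the latter (limma adjusted p = 0.00425). PDE3A, the partner of SLFN12, had a log2 fold change of -0.07 (limma adjusted p = 0.830), with a sign that turned under other settings, in cells without SLFN12 counts.

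The genomic neighborhood of the cluster held both silent and expressed genes. Of 112 other genes within 1 Mb, 61 had no count. Genes without a count were also common over the whole table, where 31730 of 58870 genes had one. Of the 112 neighbors, 19 were tested, with 4 higher and 3 lower (36.8% called, against 26.7% of all genes, and median log2 fold change 0.02). Inside the Schlafen span itself, 15 of 18 other genes had no count and none was tested. On the side of SLFN5, 1 of 7 tested genes was higher and 1 lower. On the side of SLFN14, 3 of 12 were higher and 2 lower. The smallest adjusted p values belonged to the pseudogenes ENSG00000270977 (2.72 ± 0.610 to 5.26 ± 0.392 CPM, log2 fold change 0.89, limma adjusted p = 7.24e-04) and LRRC37A9P (3.89 ± 0.484 to 6.31 ± 0.274 CPM, 0.64, limma adjusted p = 0.00153), 333 and 352 kb beyond SLFN14. As processed pseudogenes, both resemble the genes they derive from, so that their counts are uncertain. PIGW, an enzyme of membrane anchor synthesis, fell from 39.9 ± 2.22 to 34.8 ± 1.69 CPM (-0.19, limma adjusted p = 0.0277), and its call was lost without a CPM filter (0.0717) and without WT replicate 1, WT replicate 3, KO replicate 2 or KO replicate 3 (0.0537, 0.0503, 0.0573 and 0.105).

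**Figure D4:**
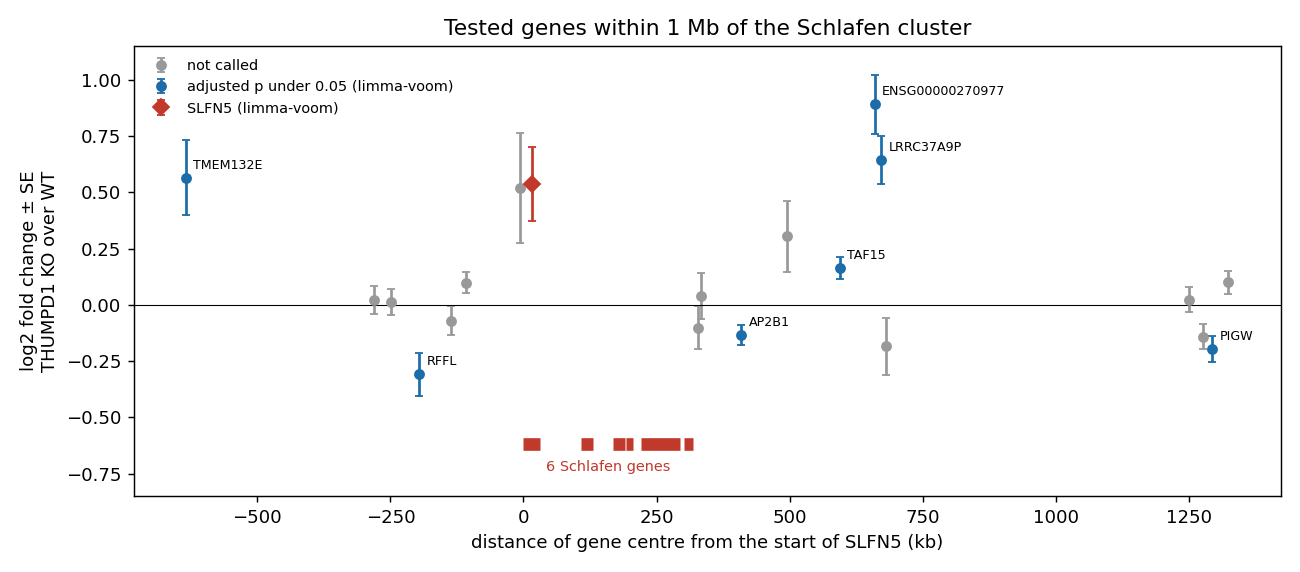
Log2 fold change of THUMPD1 KO over WT from limma-voom (vertical axis) for the 19 tested genes that lie at least partly within 1 Mb of the Schlafen cluster, against distance in kb from the start of SLFN5 (horizontal axis); points are placed at gene centers, error bars are SE, labelled blue points passed an adjusted p of 0.05, the red diamond is SLFN5 and red blocks mark the 6 Schlafen genes. Called genes of both signs lie on both sides of the Schlafen genes, and no tested neighbor lies between them.

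The neighbor nearest to SLFN5 was the long noncoding RNA ENSG00000266947, on the opposite strand, whose end lies 0.108 kb before the SLFN5 start. It is outside the rule for named genes and is given for its position. Its counts were 47, 25 and 22 in WT and 60, 51 and 32 in KO. The library numbered 1 was the highest of each genotype, as it was for SLFN5, and the groups overlapped. Its log2 fold change was 0.52 (SE 0.24), close in size to the 0.54 of SLFN5, and did not pass the test (limma adjusted p = 0.140). It was higher in KO within each replicate number, and with the replicate block the log2 fold change was 0.51 (limma adjusted p = 0.0610). Without WT replicate 1 it passed, at 0.74 (limma adjusted p = 0.0491). The annotated bodies of these genes do not overlap.

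Only SLFN5 had enough counts (a mean of at least 20) to ask which genes vary like it. Over 13248 protein-coding genes, the patterns of CACNA1D, a calcium channel subunit, and VPS26C, an endosomal sorting protein, were the most like that of SLFN5 over the 6 libraries, each with Pearson r = 0.997 on log2 CPM. CCDC191 followed with 0.996. None lies on chromosome 17, CACNA1D and CCDC191 being on chromosome 3 and VPS26C on 21. CACNA1D stood at 6.93, 5.39 and 5.90 CPM in WT and at 8.88, 7.03 and 7.57 CPM in KO, with library 1 highest in each genotype as for SLFN5. All values in these correlations come from the same 6 libraries, and they describe likeness only.

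The coding sequences of the family held more UUA, a Leu codon, than the median gene. UUA (TTA in DNA letters) made up 1.46% of codons in SLFN5, 1.55% in SLFN11, 2.08% in SLFN12, 1.797% in SLFN12L, 1.23% in SLFN13 and 0.987% in SLFN14. The median of 18972 genes was 0.485%, and the 5th and 95th percentiles were 0 and 2.27%. All 6 members lay above that median but inside this range, with between 71.0% (SLFN14) and 93.1% (SLFN12) of genes below them. Leu of any codon made up 9.92 to 11.4% of their codons, against a median of 9.98%. The share of Leu encoded by UUA, UUG, CUU or CUA was 60% in SLFN5, 49.5% in SLFN11, 66.7% in SLFN12, 65.6% in SLFN12L, 52.8% in SLFN13 and 48.4% in SLFN14, against a median of 38.6%. The members are related by descent and share sequence, so that they are not independent instances of this composition.

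**Figure D5:**
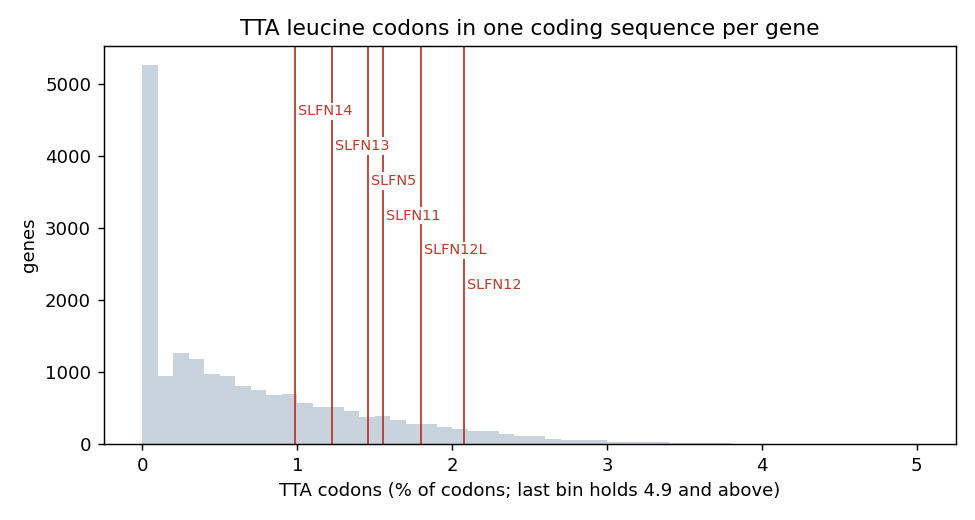
Number of genes (vertical axis) by the percentage of codons that are TTA in 1 coding sequence per gene (horizontal axis); red lines mark the 6 Schlafen genes. The members lie between 0.987% (SLFN14) and 2.08% (SLFN12), to the right of the median of 0.485%.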

How the data were processed

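Total RNA (Trizol) was freed of ribosomal RNA, and stranded paired-end libraries were sequenced. Per the labels and methods, the authors aligned reads to GRCh38 (hg38) with STAR and deposited RSEM expected counts, unscaled between libraries; versions and strand setting are not given in the sources used here. The methods name GENCODE 46; names and positions here come from GENCODE 44, in which 58517 of 58870 IDs (99.4%) matched. RSEM divides reads between similar genes, which could move counts between SLFN11 and SLFN13.

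CPM were computed from the deposited totals. As in the study, limma-voom (limma 3.58.1, R 4.3.3) was run on quantile-normalized counts. The study names a filter of 1 CPM but no number of libraries. Here 15088 genes were kept, those at 1 CPM or more in at least 3 libraries. For members below this filter, the edgeR quasi-likelihood test (edgeR 4.0.16, TMM) was run on rounded counts of the 23363 genes with a summed count of at least 10. Tests were two-sided with Benjamini-Hochberg adjustment over all genes tested and a threshold of 0.05, and edgeR standard errors were derived from its F statistic. Both fits were also run on simulated counts with planted changes and no pairing of libraries, and no result here rests on that run. The interval of the SLFN11 ratio is exact (Clopper-Pearson), and it and the limits of 3 counts cover counting error only.

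Members and lists were chosen with earlier results of these data known. Named were the members, THUMPD1, at most 3 genes per list and of the neighbors with the smallest limma adjusted p, genes overlapping a member, and the 3 most like patterns for members with a mean of at least 20 counts (log2 of CPM plus 0.1). Exceptions are stated where they occur.

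Genotypes share replicate numbers whose meaning the labels do not give. Deviations from genotype means correlated by 0.257, 0.206 and 0.138 for same-numbered libraries over 15088 genes, and by -0.231 to 0.08 otherwise. The deviations within a genotype cancel in each gene, so these correlations are not independent of each other. The numbers were taken to pair the libraries on this ground alone, and the main fits did not use the pairing. Alternatives were TMM or library sizes alone, other filters, edgeR, DESeq2 1.42.0, a replicate block, and omission of each library in turn.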

Additional observations from a re-analysis of the deposited data

How the results depend on the processing

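Of 431 comparisons of a result with an alternative setting, 370 stayed on the same side of the threshold or within 1.5 times the count, 29 lost the call, 11 gained it and 18 counts moved further. The other 3 concerned PDE3A, which was never called and whose log2 fold change turned from -0.07 to 0.021 with library sizes alone, 0.12 without WT replicate 1 and 0.0079 without KO replicate 3, within a range of -0.30 to 0.12 when 1 library was left out. SLFN11 kept its call throughout. SLFN5 ranged from 0.40 (without KO replicate 1) to 0.67 (without WT replicate 1) with 1 library left out, and lost its call in 4 of these 6 fits and with no CPM filter (0.54, limma adjusted p = 0.0822). The number of genes called over all genes was 4025, with 2663 to 4245 when 1 library was left out, the lowest without KO replicate 2. With 1 library left out, the genes called were 2 to 5 among tRNA cleavage enzymes, 0 to 4 among partners and sensors, 1 to 4 among regulators of SLFN11, 3 to 5 in the interferon list and 2 to 6 among neighbors. The partners had 4 calls with edgeR and 6 with the replicate block, the regulators had 4 with the replicate block, and the neighbors had 2 with no CPM filter. Among the named genes refitted with the replicate block, CDT1 and DNMT3B gained a call (limma adjusted p = 0.00425 and 0.0303) and no other gained or lost one. The cause of these shifts was not tested. Depth limits SLFN12, SLFN12L, SLFN13 and SLFN14, which lay below the filters of both comparisons.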

Other observations

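SLFNL1, a Schlafen-like gene on chromosome 1 that is not a member of the family above, had 22, 20 and 13 counts in WT and 8, 13 and 10 in KO (edgeR log2 fold change -0.81, adjusted p = 0.134). SLFNL1-AS1, which overlaps it on the opposite strand, had 583, 571 and 484 counts in WT and 813, 942 and 640 in KO (limma log2 fold change 0.60, adjusted p = 2.18e-04). Reads of these overlapping genes cannot be told apart without knowing the strand setting of the counting.

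CD14, a monocyte marker among the blood-cell genes, had 10, 6 and 4 counts in WT and 17, 25 and 17 in KO (edgeR log2 fold change 1.55, adjusted p = 0.0123, and 0.0613 without KO replicate 2), whereas the leukocyte marker PTPRC had 0 in each WT library and 4, 1 and 0 in KO. These genes were named after their values were seen, and whether they share anything with the rise of SLFN11 was not tested.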
